A study of Mus musculus with 2 samples.

Results

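The genes of MHC class II antigen presentation were followed in single cells of the mouse digit: *H2-Aa*, *H2-Ab1*, *H2-Eb1*, *Cd74*, *H2-DMa*, *H2-DMb1*, *Ctss* and *Ciita*, 8 of the 33696 genes counted. They were chosen by symbol, for their role, and all 8 were found in both libraries. Hindlimb digits of ICR mice, an outbred stock, were amputated through the middle phalanx (P2), the second-last bone of the digit, at postnatal day 3. At postnatal day 7 each wound received a microcarrier bead soaked in FGF8 (500 ng/µl), a growth factor of the fibroblast growth factor family, or in 0.1% bovine serum albumin (BSA), the control. Tissue beyond the P2 stump, with its epithelium taken off, was collected 24 h later, at postnatal day 8. Each condition is 1 library made from 20 digits of 5 mice, females and males together. The digits of a condition were pooled, and per the study's methods the FGF8 pool probably holds digits that did not regenerate.

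Class II molecules sit on the surface of antigen-presenting cells and show peptides from engulfed or endocytosed protein to CD4+ T cells. The conventional dendritic cell is the best known of these cells, and B cells and some macrophages and monocytes also carry the molecules. An alpha and a beta chain form each molecule: *H2-Aa* and *H2-Ab1* encode the A pair, and *H2-Eb1* encodes the beta chain of the E pair, whose alpha chain is the product of *H2-Ea*. The invariant chain, *Cd74*, fills the peptide groove of new molecules and carries them to the endosome. There cathepsin S (*Ctss*) trims the invariant chain, and the DM heterodimer (*H2-DMa*, *H2-DMb1*) swaps its last fragment for a peptide. *Ciita* encodes the class II transactivator, a co-activator that binds no DNA itself and is recruited by proteins on the X and Y boxes of class II promoters. Interferon gamma is a known inducer of *Ciita*.

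The promoters are shown because class II promoters are known for X and Y boxes, and because the results turn on how far the members moved together. Control of the members by these boxes was not tested. RefSeq promoter entries (GRCm38.p6) matched 5 of the 8 members, with 6 entries. The 250 bases before the start of 4 members are printed 5′ to 3′ on the strand of the gene. Capitals mark letters found by a search of both strands for 3 motifs, whose letters were chosen after the sequences had been seen: TGATTGG (a Y box core), AACNGATG (an X box core) and TGACGTCA (the cyclic AMP response element palindrome). None of the 3 overlaps another in these windows.

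H2-Aa (chr17:34287824-34288073, minus strand): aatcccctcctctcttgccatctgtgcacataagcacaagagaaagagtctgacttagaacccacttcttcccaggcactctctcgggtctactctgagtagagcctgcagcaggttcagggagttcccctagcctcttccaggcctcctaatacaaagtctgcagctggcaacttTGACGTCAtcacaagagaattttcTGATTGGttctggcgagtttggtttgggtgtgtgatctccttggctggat
H2-Eb1 (chr17:34305617-34305866, plus strand): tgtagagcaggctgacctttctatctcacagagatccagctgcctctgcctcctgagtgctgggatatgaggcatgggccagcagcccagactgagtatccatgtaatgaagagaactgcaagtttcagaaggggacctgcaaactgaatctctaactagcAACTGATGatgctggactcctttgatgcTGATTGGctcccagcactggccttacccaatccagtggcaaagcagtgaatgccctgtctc
H2-DMb1 (chr17:34152941-34153190, plus strand): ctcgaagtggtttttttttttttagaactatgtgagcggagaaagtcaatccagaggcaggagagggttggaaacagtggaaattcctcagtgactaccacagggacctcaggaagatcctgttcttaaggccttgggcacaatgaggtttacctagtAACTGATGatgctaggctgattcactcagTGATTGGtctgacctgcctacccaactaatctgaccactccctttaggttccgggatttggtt
Ctss (chr3:95526536-95526785, plus strand): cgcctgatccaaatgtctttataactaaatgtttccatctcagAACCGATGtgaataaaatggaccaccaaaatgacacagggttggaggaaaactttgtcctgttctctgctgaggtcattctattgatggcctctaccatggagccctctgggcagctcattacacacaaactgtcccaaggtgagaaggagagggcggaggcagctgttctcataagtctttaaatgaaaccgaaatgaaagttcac

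*H2-Eb1* held the X box core 89 bases and the Y box core 61 bases before its start. *H2-DMb1* held them at 92 and 63 bases, so the spacing was nearly the same. *H2-Aa* held the Y box core at 50 bases, with the palindrome at 74 bases. *Ctss* held the X box core alone, at 207 bases, and neither entry of *H2-DMa* held any of the 3. Of all 32851 promoter entries, cut to the same length, 7.23% held the Y box core, 1.98% the X box core and 1.55% the palindrome. These matches describe letters only.

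In the libraries, each transcript captured by its 3′ end is tagged with a cell barcode and a molecular identifier (UMI), and PCR copies count once. The BSA library held 67739460 UMIs in 3703 barcodes and the FGF8 library 124889213 UMIs in 7249 barcodes. Of these, 3252 and 6715 cells passed the filters (gene number and mitochondrial share), with medians of 15377 and 12251 UMIs. The libraries share 6 barcodes, 4 of them among the kept cells. Cells with *Xist* UMIs and no UMI of 4 Y-linked genes were called female, and the reverse male. Females made up 79.3% of the called BSA cells and 24.6% of the called FGF8 cells, so the pools differed in sex as well as in treatment. With 1 library per condition there was no test, and FGF8, pool, sex and dissection cannot be told apart. Levels are given as CPM, a gene's UMIs per 1000000 UMIs of the cells in question. Comparisons are log2 ratios of CPM, FGF8 over BSA, with exact conditional 95% intervals that cover counting error only.

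The 8 members were highest in 1 of the 9 clusters of cells, the macrophage-like cluster, in which 8 of 8 macrophage markers were found in at least 10% of the cells of each library. It held 471 BSA cells (14.5% of the library) and 893 FGF8 cells (13.3%). The sum of *H2-Aa*, *H2-Ab1* and *H2-Eb1*, called the class II chains here, was 2811 CPM in the BSA library and 2006 CPM in the FGF8 library. These cells held 98.4% of all chain UMIs of the BSA library (16205 of 16472) and 94.0% of the FGF8 library (20479 of 21786). Free RNA from broken cells gives every droplet a few UMIs, so shares of cells are set beside those of erythroid-like and fibroblast-like cells. At least 1 chain UMI was found in 24.4% of BSA and 17.5% of FGF8 macrophage-like cells, at medians of 10221 and 9588 UMIs. The share was 1.2% and 1.96% in erythroid-like cells (medians of 18393 and 6983 UMIs) and 5.97% and 6.71% in fibroblast-like cells (20173 and 18616 UMIs).

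Below the macrophage-like cells, the order of the other 8 clusters rested on few UMIs. In the BSA library the other clusters held 0 to 182 chain UMIs each, and their chain levels ran from 0 (mast-like) to 11.3 CPM (neutrophil-like). In the FGF8 library they ran from 2.59 CPM (erythroid-like) to 182 CPM (neutrophil-like). That neutrophil-like level rested on 1 cell with 275 of the 309 chain UMIs. Single cells likewise held 199 of the 219 chain UMIs of FGF8 chondrocyte-like cells, 100 of 122 in smooth muscle or pericyte-like cells and 26 of 27 in mast-like cells. Neighbours in this order are therefore not separated, and of these clusters a ratio between the libraries is given for the fibroblast-like cells alone, with and without their top cells.

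**Figure D1:**
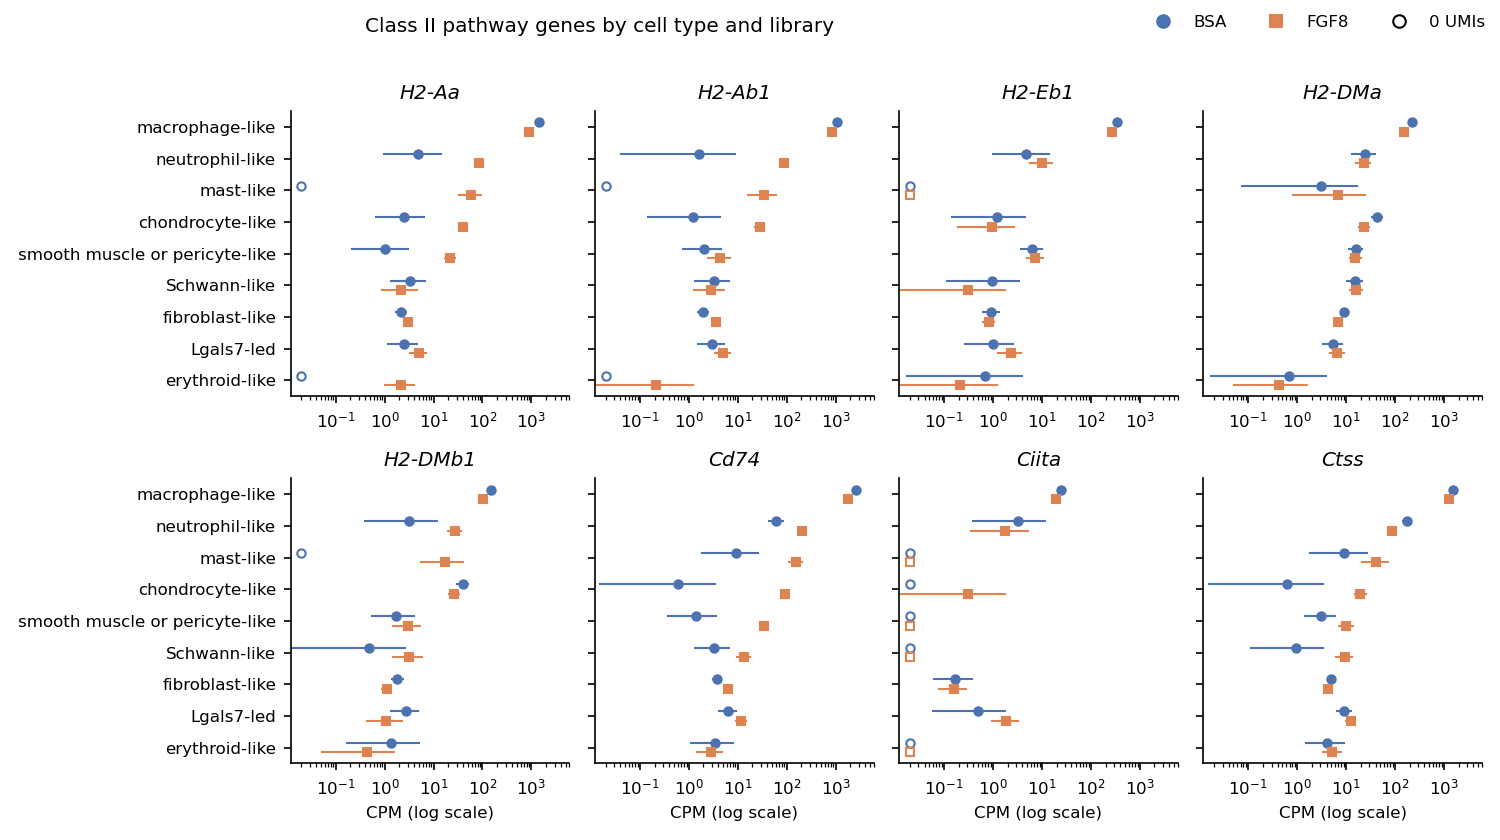
Level of each of the 8 members (CPM, log axis, 1 panel per gene) in the 9 clusters of cells, BSA as circles and FGF8 as squares, with exact Poisson 95% intervals that are cut at the left edge where they reach below it; open symbols near the left edge are clusters with 0 UMIs. The macrophage-like cells sit at the right of every panel, for example at 2631 and 1805 CPM for *Cd74*, and *H2-DMa* keeps 42.8 and 23.0 CPM in chondrocyte-like cells.

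All 8 members were lower in the FGF8 than in the BSA library within macrophage-like cells, each by less than 2-fold. *H2-Aa* was 1398 CPM with BSA and 901 CPM with FGF8 (8061 and 9195 UMIs), a log2 ratio of -0.63 (95% interval -0.68 to -0.59). *H2-Ab1*, its partner, was 1066 and 829.8 CPM, a ratio of -0.36 (-0.41 to -0.31). *H2-Eb1* was 347 and 276 CPM, a ratio of -0.33 (-0.42 to -0.25). In the male-called macrophage-like cells *H2-Eb1* was instead higher with FGF8, by 3.34 (2.82 to 3.91), while the other chains were lower there too. In the pooled cells the interval of the *H2-Aa* ratio, for counting error only, did not overlap those of the other chains. In female-called cells the *H2-Aa* interval (-0.69 to -0.54) overlapped that of *H2-Eb1* (-0.67 to -0.40) but not that of *H2-Ab1* (-0.53 to -0.36). Over all macrophage-like cells the chains together gave -0.49 (-0.52 to -0.46). When macrophage-like cells were instead called one by one, by at least 3 UMIs of the C1q genes, the chain ratio was -0.040 (-0.17 to 0.09), an interval that includes 0, and without the dendritic-like cells described below it was -0.87.

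The members that handle the new molecules were also lower in the pooled macrophage-like cells. The invariant chain *Cd74* was 2631 CPM with BSA and 1805 CPM with FGF8, a log2 ratio of -0.54 (-0.57 to -0.51). The DM genes were close to each other, with *H2-DMa* at 226 and 151 CPM (-0.58, interval -0.68 to -0.47) and *H2-DMb1* at 150.2 and 103 CPM (-0.55, -0.68 to -0.42). *Ctss*, found in 84.5% and 89.2% of these cells, was 1561 and 1251 CPM, the smallest difference of the 8 (-0.32, -0.36 to -0.28). That pooled *Ctss* ratio lies outside the intervals of both sexes. It was -0.13 (-0.19 to -0.06) in female-called cells and 0.020 (-0.067 to 0.11) in male-called cells. *Ciita*, the regulator, had 144 and 200 UMIs, or 25.0 and 19.6 CPM, a ratio of -0.35 with a wide interval (-0.67 to -0.03).

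None of the 8 members passed 2-fold, among 15297 genes of which 3.29% were at least 2-fold lower and 8.5% at least 2-fold higher in the FGF8 library. All 8 were lower, where 6759 of the 15297 genes were. The median log2 ratio of the members was -0.45, and that of all genes 0.06. Macrophage genes did not all move with them. *Lyz2*, a lysozyme of myeloid cells, was 4530 and 3360 CPM (-0.43), whereas *C1qa*, *C1qb* and *C1qc* together were 2991 and 2960 CPM (-0.02). The part of such shifts between myeloid cells in the class II difference was not tested. In these summed counts, fewer cells with the molecules and fewer transcripts per cell look alike, so the cells were counted next.

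Class II transcripts were held by a small part of the macrophage-like cells. No chain UMI was found in 75.6% of the BSA cells (interval 71.4–79.4%) and 82.5% of the FGF8 cells (79.9–85.0%). More than 100 chain UMIs were found in 36 BSA cells, 7.64% (5.41–10.4%), and in 59 FGF8 cells, 6.61% (5.07–8.44%), and these intervals overlap. Those few cells held 91.2% and 94.0% of the cluster's chain UMIs. When every cell was thinned at random to 2000 UMIs, at least 3 chain UMIs were found in 13.7% of the BSA cells (57 of 417, interval 10.5–17.3%) and in 9.90% of the FGF8 cells (83 of 838, 7.97–12.1%). The difference was -3.76 percentage points, with an interval from -7.92 to 0.09 that includes 0. Thinning left out 54 BSA and 55 FGF8 cells, and without thinning the shares were 17.4% and 11.6%, a difference of -5.76 points with an interval (-10.0 to -1.73) that lies below 0. Over the 11 alternative settings, this one included, the difference was below 0 in each, with an interval below 0 in 7 and one that includes 0 in 4.

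Re-clustering of the macrophage-like cells, without the class II and class I genes as features, gave 7 sub-clusters, and class II transcripts were unevenly spread over them. A conventional dendritic-like sub-cluster, led by *Gcsam*, *Clec9a* and *Xcr1*, held 17 BSA and 33 FGF8 cells, 3.61% (2.12–5.72%) and 3.70% (2.56–5.15%) of the cluster. Of 12 dendritic markers, 7 were found in at least 10% of its cells in each library. *Cd209a* and *Clec10a* were at 0 in both libraries, and *C1qb* and *C1qc*, of macrophages, also. The other sub-clusters were led by *Cxcr4* (170 and 352 cells), by *C1qa*, *C1qb* and *C1qc* with *Cbr2* and *Gas6* (C1q-rich, 106 and 211 cells), and by *Ly6c2* and *Plac8* (monocyte-like, 80 and 107 cells). Smaller ones were T or NK-like (50 and 95 cells) or were led by *Lars2* (33 and 57 cells) or *Bnc2* (15 and 38 cells).

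Every dendritic-like cell carried class II chain UMIs, from 45 to 1020 per cell with BSA (median 414) and from 20 to 701 with FGF8 (median 351). These few cells held 41.1% of all chain UMIs of the BSA library and 52.0% of the FGF8 library.
The chains were 23375 and 21796 CPM there, a log2 ratio of -0.10 (-0.14 to -0.06). Female-called cells alone gave -0.23 and male-called cells alone 0.40, so the pooled value joins opposite directions, and without the top cell of each library it was -0.024 (-0.071 to 0.022). *H2-Aa* was 12069 and 9545 CPM (-0.34, -0.40 to -0.28) and *H2-Ab1* 8761 and 9089 CPM (0.05, -0.02 to 0.12), while *Cd74* was 17577 and 15181 CPM (-0.21, -0.26 to -0.16). The other members were higher in the FGF8 library when all these cells were pooled. *H2-Eb1* had a ratio of 0.31 (0.19 to 0.44) and *H2-DMb1* 0.31 (0.08 to 0.55). The *H2-Eb1* value also joins opposite directions, -0.22 (-0.39 to -0.04) for females and 4.15 (3.58 to 4.78) for males (called cells). That male-called value rested on 25 *H2-Eb1* UMIs in 6 BSA cells. *H2-Ab1* (-0.11 and 0.29) and *H2-DMa* (-0.07 and 0.71) differed in sign too, with female-called intervals that include 0. *H2-DMb1*, *Ciita* and *Ctss* were higher in each sex. *Ciita* was 179.6 and 248 CPM, with UMIs in 15 of 17 and 29 of 33 cells, and a ratio of 0.47 (-0.01 to 0.96). Of the 8 members 6 were higher and 2 lower in the pooled cells, where 3921 of 7038 genes were higher. Past 2-fold were 0 members, where 18.7% of all genes were past 2-fold in these few cells.

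**Figure D2:**
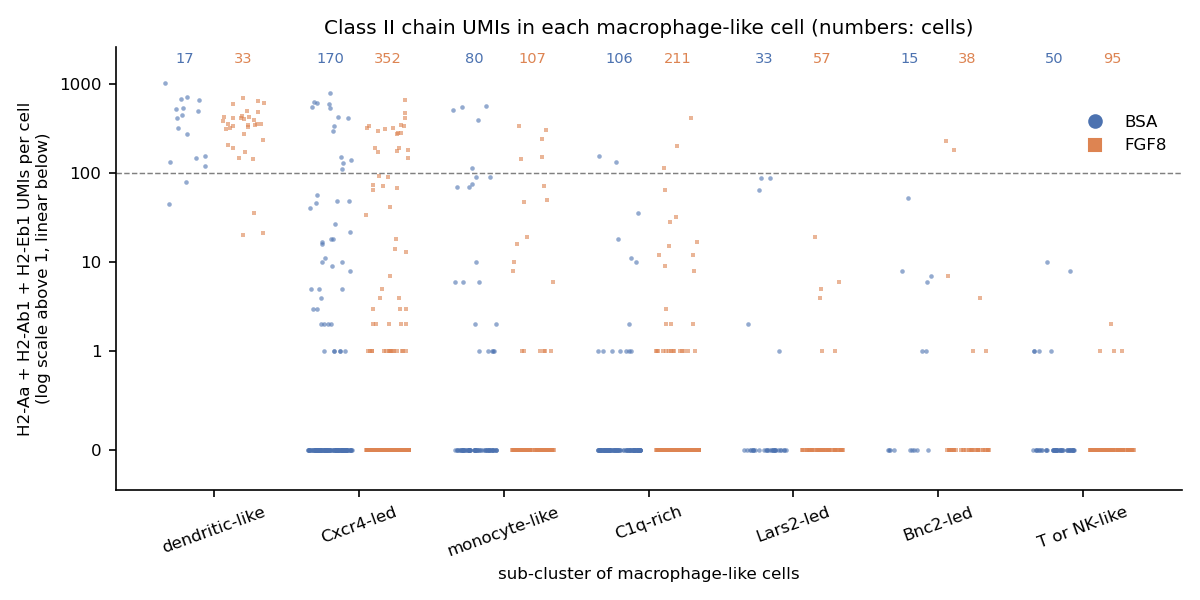
UMIs of *H2-Aa*, *H2-Ab1* and *H2-Eb1* in each macrophage-like cell (1 point per cell, log axis above 1 and linear below), by sub-cluster and library, with the number of cells above each column and a dashed line at 100 UMIs. Dendritic-like cells lie between 20 and 1020, with none at 0, and in the other sub-clusters most cells lie at 0 while a few reach the level of the dendritic-like cells.

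Outside the dendritic-like sub-cluster the libraries differed more, and not in 1 direction. In Cxcr4-led cells the chains were 3423 CPM with BSA and 1655 CPM with FGF8, a log2 ratio of -1.05 (-1.10 to -1.0). The direction was not the same in the sexes: the chain ratio was -2.01 for female-called cells and 1.11 for male-called ones, where *H2-Aa* (0.62), *H2-Ab1* (1.44), *H2-Eb1* (4.07) and *Cd74* (0.43) were all higher with FGF8. *H2-DMa* (-0.82, -1.20 to -0.42) and *Ctss* (-0.40, -0.54 to -0.25) were lower in male-called cells too. There the intervals of *H2-DMb1* (-0.013) and *Ciita* (2.22) include 0. In the pooled cells all 8 members were lower, where 5837 of 12107 genes were, and 5 were at least 2-fold lower, beside 5.46%. The median was -1.10 for the members and 0.02 for all genes. The 5 were *H2-Aa* (-1.09), *H2-Eb1* (-1.17), *H2-DMa* (-1.11), *H2-DMb1* (-1.38) and *Ciita* (-1.23, interval -1.88 to -0.58). *Lyz2* in the same cells was 4105 and 2825 CPM (-0.54), and the C1q genes 624 and 358 CPM (-0.80).

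In monocyte-like cells the chains were 2874 and 1605 CPM, a log2 ratio of -0.84 (-0.94 to -0.75). With the sexes pooled, the 8 members were lower, where 4640 of 9361 genes were, and none by 2-fold (5.39% of all genes were). Their median was -0.59 against 0.01 for all genes. *H2-DMa* (381 and 359 CPM; -0.08, interval -0.31 to 0.14) and *Ctss* (2678 and 2577 CPM; -0.06, -0.14 to 0.03) had intervals that include 0, and *Lyz2* was higher with FGF8 (7010 and 8811 CPM, 0.33). Within each sex *H2-Aa*, *H2-Ab1*, *H2-DMb1* and *Cd74* were lower, and *H2-DMa* was 0.03 (female-called) and 0.18 (male-called), with intervals that include 0. Male-called cells had higher *Ctss* (0.51, 0.32 to 0.69) and *H2-Eb1* (4.95, from 1 BSA UMI). Female-called cells had higher *Ciita* (0.79, -0.76 to 2.19). Most Cxcr4-led and monocyte-like cells held no chain UMI: the median cell was at 0 in both libraries. The share above 100 UMIs was 8.24% (14 of 170) and 5.40% (19 of 352) in the former and 5 of 80 and 5 of 107 in the latter.

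C1q-rich cells, whose summed level of the 8 macrophage markers (11456 and 12058 CPM) was the highest of the 7 sub-clusters, carried little class II. Their chains were 192 CPM with BSA and 296 CPM with FGF8, a log2 ratio of 0.63 (0.45 to 0.80), opposite in sign to the sub-clusters above, and at a coarser resolution of 0.1 the ratio of the C1q-rich cells was -0.22. One FGF8 cell held 413 of the 946 chain UMIs, and one BSA cell 157 of the 375. The chain UMIs were found in 13.2% and 14.2% of the cells. Of the 7 members with at least 10 UMIs, 5 were higher and 2 lower, where 6977 of 11799 genes were higher. Past 2-fold were 0 members (10.3% of all genes in either direction), and the median was 0.08 for the members and for all genes. *Ciita* had 5 and 4 UMIs there, or 2.56 and 1.25 CPM. *Ctss* was found in every C1q-rich cell, at 1293 and 1365 CPM, and was higher there than in dendritic-like cells, where it was 466 and 558 CPM. So the protease did not follow the chains across these cells, and of the 4 it was highest in monocyte-like cells in both libraries. The remaining sub-clusters held few chain UMIs: 244 and 36 in Lars2-led cells, whose medians were 3096 and 2276 UMIs, 75 and 421 in Bnc2-led cells, and 22 and 5 in T or NK-like cells.

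**Figure D3:**
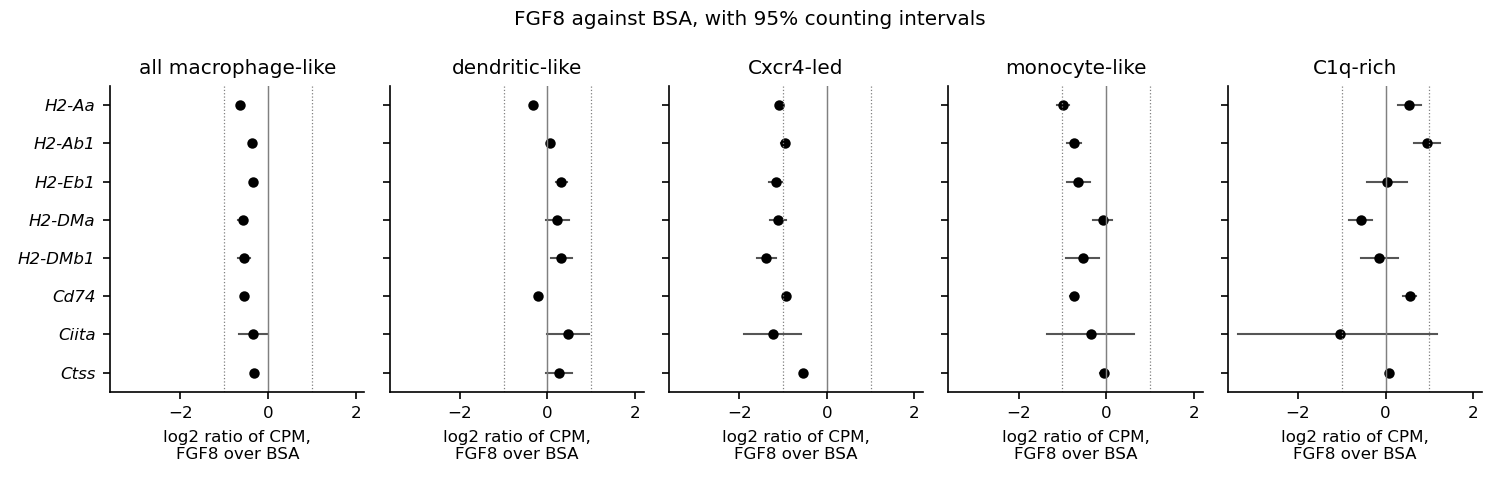
Log2 ratio of CPM, FGF8 over BSA, of each member with its exact conditional 95% interval (bars) in all macrophage-like cells and in 4 of their sub-clusters; the solid line marks no difference and dotted lines mark 2-fold. Cxcr4-led cells show 5 members beyond the left dotted line, dendritic-like cells show *H2-Aa* and *Cd74* left and 6 members right of the solid line, and the *Ciita* interval in C1q-rich cells, from 5 and 4 UMIs, is the widest.

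Of the cells with more than 100 chain UMIs, 21 BSA and 29 FGF8 cells lay in macrophage-like sub-clusters other than the dendritic-like one. Their chain levels, 17409 and 20078 CPM, were near those of the dendritic-like cells. Dendritic genes were found unevenly in them. *Xcr1* was found in 0 of 21 and 1 of 29, *Clec9a* in 1 and 1, *Cd207* in 0 and 2, and *Ccr7* in 2 and 5. *Ccr2*, a chemokine receptor of monocytes and some dendritic cells, was found in 20 and 23. *Cd209a*, a lectin gene of one kind of conventional dendritic cell and at 0 in the dendritic-like sub-cluster, was found in 13 of 21 and 11 of 29 of them. *Flt3*, a receptor of dendritic cells and their precursors, was found in 11 of 21 and 9 of 29, and at least 3 UMIs of the C1q genes in 2 and 3. The sub-cluster lines therefore do not separate the cells with high class II from the rest.

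A further 3 cells with more than 100 chain UMIs, all from the FGF8 library, lay in other clusters: 199 UMIs in a chondrocyte-like, 275 in a neutrophil-like and 222 in a fibroblast-like cell. Each carried *Flt3* (5, 5 and 3 UMIs) and none a C1q UMI. The chondrocyte-like cell had 187 UMIs of *Col2a1*, the neutrophil-like cell 22 of *S100a8* and the fibroblast-like cell 244 of *Col1a1*. Their doublet scores, from a run that called no doublet and so did not work, stood at percentiles 97.1, 94.1 and 99.8 of the library. Whether they are droplets with 2 cells was not tested.

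In fibroblast-like cells the chains were 5.12 CPM with BSA and 7.47 CPM with FGF8, a log2 ratio of 0.54 (0.30 to 0.80). The last of the 3 cells held 222 of the 522 FGF8 chain UMIs and a BSA cell 35 of 182, and without these cells the ratio was 0.05. With clusters drawn on all 3000 features it was -0.25. *Lyz2* UMIs in the same cells were 14.4 and 15.4 CPM (0.09), and the C1q genes 7.01 and 6.95 CPM. Per *Lyz2* UMI, the chains were 0.57 and 0.81 times their ratio in macrophage-like cells. Of the members 3 were higher and 5 lower, where 11241 of 20062 genes were lower. None was past 2-fold, where 11.7% of genes were past 2-fold in either direction.

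*H2-DMa* and *H2-DMb1* also had UMIs in connective tissue cells, and *H2-Eb1* in smooth muscle or pericyte-like cells. In chondrocyte-like cells *H2-DMa* was found in 28 of 66 BSA and 39 of 142 FGF8 cells, at 42.8 and 23.0 CPM, and *H2-DMb1* in 27 and 39, at 39.2 and 26.4 CPM. Of the *H2-DMa*-positive cells 27 of 28 and 33 of 39 had no *Cd74* UMI, and *Ciita* had 0 and 1 UMIs in the whole cluster. The UMIs were spread over cells, with at most 8 and 9 *H2-DMa* and 6 and 11 *H2-DMb1* UMIs in any one. Set against *Lyz2* in the same cells, *H2-DMa* was 281 and 14.4 times and *H2-DMb1* 386 and 24.4 times its ratio in macrophage-like cells. In the BSA library that rests on 5 *Lyz2* UMIs. *H2-DMb1* has a close paralog, *H2-DMb2*, so its counts are uncertain where reads could fit both. *H2-DMb2* itself had 10 and 20 UMIs in these cells.

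*H2-DMa* was also found in 16.7% and 12.5% of fibroblast-like cells (327 and 468 UMIs), 12.8 and 9.66 times its macrophage-like ratio to *Lyz2*. In Schwann-like cells it was found in 27 of 124 and 40 of 240. Its share was 1.2% and 0.326% in erythroid-like cells and 4.43% and 3.72% in the shallow neutrophil-like cells (medians of 3214 and 2413 UMIs). *H2-Eb1* was found in 17 of 185 BSA and 11 of 283 FGF8 smooth muscle or pericyte-like cells, 17 and 10 of them without *Cd74*. The BSA cells held at most 2 *H2-Eb1* UMIs each, and 1 FGF8 cell held 17 of the 27. Read against *Lyz2*, this was 8.70 and 4.01 times the macrophage-like ratio, where *H2-Eb1* in fibroblast-like cells was 0.84 and 0.65 times. These ratios also vary within the macrophage-like cluster: in its dendritic-like cells *H2-DMa* was 36.9 and 61.8 times and *H2-Eb1* 91.6 and 137 times the ratio of the whole cluster. The part of free RNA in the UMIs outside that cluster was not tested.

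Because the pools differed in sex, the comparison was repeated within female-called cells (297 BSA and 170 FGF8 macrophage-like cells) and male-called cells (72 and 486). The chains of all macrophage-like cells were lower with FGF8 in each, with log2 ratios of -0.54 (-0.59 to -0.49) in female-called and -0.43 (-0.49 to -0.38) in male-called cells. Of the male-called chain UMIs, 2311 of 3072 with BSA lay in 6 dendritic-like cells and 7901 of 13515 with FGF8 in 22. They were 6 of the 72 and 22 of the 486 male-called cells, and their chains were higher with FGF8 (15857 and 20956 CPM). The male-called value of -0.43 is thus not a lower level in dendritic-like cells. The male-called ratio without these dendritic-like cells was not computed. The pooled ratio without dendritic-like cells (-0.87) was not split by sex, so it is not known to hold in male-called cells. Monocyte-like cells gave -1.35 (-1.55 to -1.15) and -1.08 (-1.25 to -0.91). The male-called value rested on 10 BSA cells, of which 1 held 396 of the 494 chain UMIs, and without the top cell of each library it was 0.12 (-0.21 to 0.46). Cxcr4-led cells gave -2.01 (-2.12 to -1.90) in female-called and 1.11 (0.93 to 1.29) in male-called cells. The male-called Cxcr4-led value rested on 25 BSA cells with 267 chain UMIs, and the lower level of the pooled Cxcr4-led cells was not seen in them.

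Dendritic-like cells gave -0.23 (-0.30 to -0.16) from 10 and 7 female-called cells and 0.40 (0.34 to 0.47) from 6 and 22 male-called cells. In C1q-rich cells the 40 female-called FGF8 cells and 79 BSA cells gave -0.12 (-0.42 to 0.17), and -2.01 (-2.75 to -1.35) without the top cell of each library. The 19 male-called BSA cells held 0 chain UMIs and the 131 FGF8 cells 339, and against a floor of 3 UMIs over the BSA group the log2 ratio was at least 4.31. Fibroblast-like cells gave -0.71 (-1.27 to -0.18) and 1.30 (0.72 to 1.94), and without the top cells -0.33 (-0.92 to 0.23) and 0.36 (-0.26 to 1.05), intervals that include 0.

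**Figure D4:**
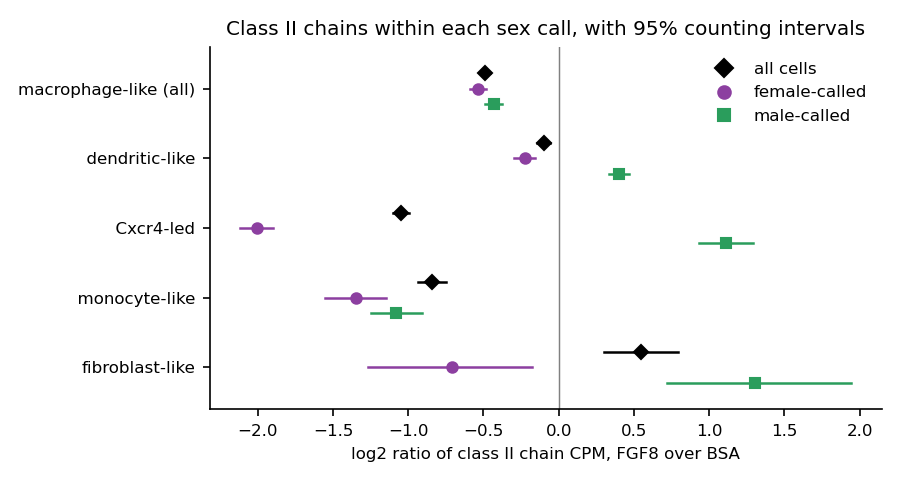
Log2 ratio of class II chain CPM, FGF8 over BSA, with exact conditional 95% intervals (bars), for all cells (diamonds), female-called cells (circles) and male-called cells (squares) of macrophage-like cells, 3 of their sub-clusters and fibroblast-like cells. Female-called and male-called symbols lie on the same side of 0 in all macrophage-like and monocyte-like cells, and on opposite sides in the other 3. Of the male-called BSA chain UMIs of all macrophage-like cells, 2311 of 3072 lie in 6 dendritic-like cells. In monocyte-like cells 396 of the 494 male-called BSA chain UMIs lie in 1 cell.

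*H2-Eb1* stood apart from the other chains. Among male-called macrophage-like cells it made up 0.977% (0.660–1.39%) of the chain UMIs in the BSA library (30 of 3072) and 13.4% (12.8–13.9%) in the FGF8 library (1805 of 13515). Among female-called cells the shares were 15.5% (14.9–16.1%) and 15.5% (14.4–16.7%). In male-called cells *H2-Eb1* was therefore higher with FGF8, 28.4 and 288 CPM, a log2 ratio of 3.34 (2.82 to 3.91), where *H2-Aa* (-0.71) and *H2-Ab1* (-0.53) were lower.

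The share was read cell by cell in the 98 cells with more than 100 chain UMIs, and its values lay in separate ranges. In 23 cells *H2-Eb1* was 0 to 2.2% of the chain UMIs, and in 75 it was 7.0 to 25.4% (median 16.1%), with no cell between. A limit of 5%, set after these values had been seen, separates the ranges. The low range held 9 BSA and 14 FGF8 cells, of which 0 were female-called, 20 male-called and 3 uncalled. The high range held 38 female-called, 29 male-called and 8 uncalled cells. All 8 male-called BSA cells were in the low range and all 27 female-called BSA cells in the high one, from 8.86 to 25.4%. All 11 female-called FGF8 cells were in the high range, from 13.7 to 18.2%, while the 41 male-called FGF8 cells were split, 12 low and 29 high.

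**Figure D5:**
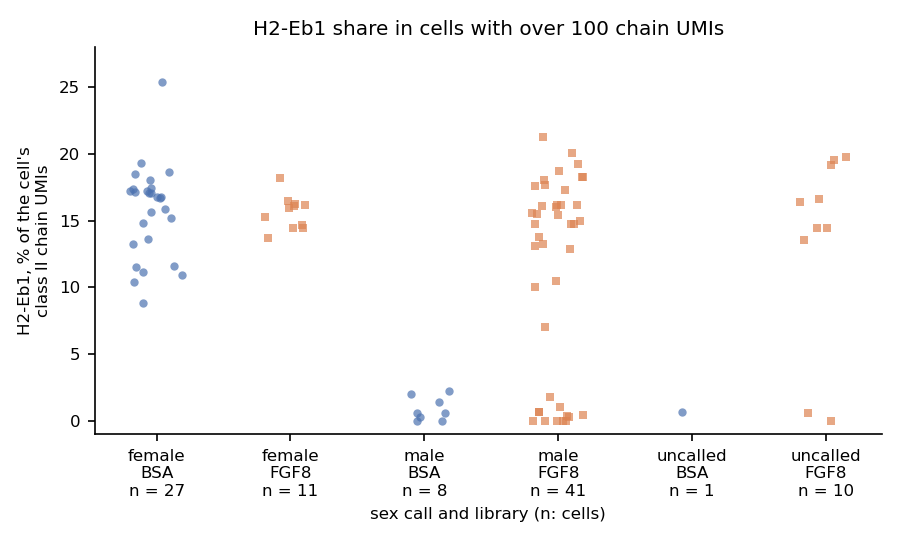
*H2-Eb1* as a percentage of the UMIs of *H2-Aa*, *H2-Ab1* and *H2-Eb1* in each of the 98 cells with more than 100 such UMIs (1 point per cell, linear axis), by sex call and library, BSA as circles and FGF8 as squares. The 8 male-called BSA cells lie at or below 2.2%, the female-called cells of both libraries lie at 8.86% or above, and the 41 male-called FGF8 cells lie in both ranges.

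*H2-Ab1* and *Cd74* were near the same level in both ranges. Per 1000000 UMIs, the low and the high cells had 8190 and 9890 UMIs of *H2-Aa*, 8283 and 8160 of *H2-Ab1*, 17022 and 16980 of *Cd74*, and 106 and 3421 of *H2-Eb1*. *H2-Ea*, whose product pairs with that of *H2-Eb1*, was 172 and 99.8 CPM. The low cells were not of 1 kind: 11 were dendritic-like, 8 Cxcr4-led and 1 monocyte-like, and the high cells were 34, 25 and 9. Which animals the cells came from is not recorded, and whether an allele, an animal or sex goes with the low range was not tested. Of the male-called cells with more than 100 chain UMIs, 8 of 8 with BSA and 12 of 41 with FGF8 were in the low range. Differences in *H2-Eb1* between the libraries in male-called cells include these unequal numbers. No female-called cell with more than 100 chain UMIs was in the low range in either library. With the sexes pooled, the low range held 9 of 36 such cells with BSA and 14 of 62 with FGF8.

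The wider pathway in macrophage-like cells was read from lists grouped by role. Of the 4 other class II chain and DM or DO genes with at least 10 UMIs, 4 were lower with FGF8 (median log2 ratio -0.54), led by *H2-Ea* at 19.1 and 9.70 CPM (-0.98, -1.38 to -0.57). Of the 7 co-stimulation and turnover genes 7 were lower (median -0.51), where 6759 of all 15297 genes were. The 2 that were at least 2-fold lower, beside 3.29% of all genes, were *Cd40* and *Icosl*, a co-stimulatory ligand named after its value was seen, at 7.46 and 3.33 CPM (-1.16, -1.86 to -0.48). *Cd40*, the receptor through which helper T cells activate these cells, was 24.8 and 12.0 CPM (-1.04, -1.40 to -0.68), and *Cd83*, a surface protein of mature dendritic cells that did not pass 2-fold, 129.8 and 68.1 CPM (-0.93, -1.08 to -0.78).

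Lysosomal genes differed less. Of 7 enzymes of peptide loading and lysosomal digestion 6 were lower, where 6759 of 15297 genes were, with a median of -0.10. The protease gene *Ctsd* was 568 and 644 CPM (0.18, 0.12 to 0.24). Of 16 regulators 10 were lower and 1 by at least 2-fold (median -0.11), beside 3.29% of all genes. That gene was *Ifng*, interferon gamma, at 26.2 and 6.17 CPM (-2.09, -2.53 to -1.65). Its 151 and 63 UMIs all lay in T or NK-like cells, in 13 of 50 and 12 of 95 of them, and the chain UMIs of those cells were few (22 and 5). The DNA-binding regulators *Rfxap* (0.34, 0.07 to 0.61), *Nfyb* (0.19, -0.12 to 0.51) and *Nfyc* (0.16, -0.14 to 0.46) had the highest ratios of these lists beside *Ctsd*, and intervals of the last 2 regulators include 0.

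Class I genes, which serve the separate route to CD8+ T cells, were also lower in the pooled macrophage-like cells. Of 11 genes 10 were lower, where 6759 of 15297 genes were, and none by 2-fold. Their median was -0.45, the same as for the 8 members. The medians differed within sub-clusters. In Cxcr4-led cells the class I median was -0.36 and that of the members -1.10, in monocyte-like cells -0.10 and -0.59, and in C1q-rich cells -0.27 and 0.08.

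Across cell types and sub-clusters, the genes with the pattern most like that of *H2-Aa*, *H2-Ab1*, *H2-Eb1* and *Cd74* were sought by Pearson correlation of log2(CPM + 1). The points were 28 combinations of a cell type or sub-cluster with a library, which share libraries and differ in depth, and 16250 genes with at least 100 UMIs were compared. A point needed at least 20 cells, so the BSA dendritic-like (17 cells) and BSA Bnc2-led (15 cells) sub-clusters were left out. Of genes outside the 8 members, *Cd86* (r = 0.91), *Irf5* (0.90), *Tifab* (0.90), *Aif1* (0.89), *Ms4a6c* (0.89), *H2-DMb2* (0.89), *Amz1* (0.89), *Tbc1d9* (0.88), *Dpep2* (0.88) and *Ms4a4c* (0.88) came first. *Cd86*, a co-stimulatory ligand, was 262 CPM in FGF8 dendritic-like cells and 276 and 164 CPM in monocyte-like cells. *Aif1* is a cytoskeletal gene of macrophages, and its highest levels, 1704 and 1666 CPM, were in monocyte-like cells. Among the members the values were 0.90 for *H2-DMa*, 0.89 for *Ctss*, 0.88 for *Ciita* and 0.83 for *H2-DMb1*.

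The members lie on 4 chromosomes (GENCODE vM39 on GRCm39). *H2-Ab1* (chr17:34476663-34488393), *H2-Aa* (chr17:34493404-34506798), *H2-Eb1* (chr17:34504236-34535648), *H2-DMa* (chr17:34338515-34358958) and *H2-DMb1* (chr17:34372046-34379204) lie in the H2 complex. The spans of *H2-Aa* and *H2-Eb1* overlap on opposite strands. *Cd74* lies at chr18:60936899-60945731, *Ciita* at chr16:10297923-10347694 and *Ctss* at chr3:95433963-95463717.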

How the data were processed

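Single-cell RNA-seq was analysed for 2 libraries of digit cells, 1 for BSA and 1 for FGF8. The authors captured cells with 10x 3′ chemistry and deposited their raw UMI counts, one for each gene in each barcode. The submitters' processing notes name Cell Ranger 9.0.0, Seurat, GRCm39 and mm10. The files list every barcode before the filters that the paper's methods describe, and 0 columns were left unused. The 8 members, the wider lists and the rule for named genes were chosen with earlier results of these data known.

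Kept cells had more than 200 and fewer than 7500 genes, with under 15% of UMIs mitochondrial. They were clustered in R 4.3.3 (Seurat 5.3.0, sctransform 0.4.2) with the methods the paper names (SCTransform, CCA integration, resolution 0.05). Running SCTransform per library, 30 principal components and a seed of 42 were choices made here. The class II and class I lists were left out of the features (2968 of 3000 used), and macrophage-like cells were clustered again at a resolution of 0.2 (2965 of 3000). Clusters are called X-like from marker lists only. The rules that chose among lists, and that left a cluster unnamed, were set after seeing the data, so the names were rebuilt here and may differ from those of the study for that reason. The cluster led by *Lgals7*, with keratinocyte and endothelial markers, stayed unnamed.

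For each cell type of a library, UMIs were added up in Python 3.11.15 (numpy 2.4.6, scipy 1.17.1, pandas 2.3.3, matplotlib 3.10.9) and scaled to CPM. Ratios have exact conditional, levels exact Poisson and shares Clopper-Pearson 95% intervals, for counting error only. A library with no UMI entered at a floor of 3 UMIs over its cells. Members were counted past 2-fold where the libraries together held at least 10 UMIs. Named beside the members were the 4 highest and 4 lowest ratios of the lists among genes with at least 100 UMIs in macrophage-like cells, and the 10 genes with the most similar pattern. *Cd209a*, *Flt3*, the other genes given for cells with high class II, *Icosl*, *Lyz2* and the C1q genes were named after their values were seen. With 1 library per condition no p-value was computed. Scrublet (scanpy 1.11.5) called no doublet in either library and so did not work, and doublets were not removed. The ratio was run on simulated UMI sums with known folds. These were drawn as independent Poisson counts, so the run does not cover UMIs gathered in few cells. The alternatives were another cell filter, all features, no integration, cell types called per cell, highest doublet scores removed, each sex, equal weight of cells, centring, thinning, another fold, resolutions of 0.1 and 0.3, and leaving out top cells or sub-clusters.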

Additional observations from a re-analysis of the deposited data

Results flagged for a closer look

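Within female-called and male-called cells, 12 values had log2 ratios (FGF8 over BSA) of opposite sign with both counting intervals off 0. The male-called ratio was the higher one in each, and the differences, male-called minus female-called, were not tested. In fibroblast-like cells the difference was 2.56 for *H2-Ab1* and 2.01 for the class II chains. In all macrophage-like cells it was 3.87 for *H2-Eb1*. In Cxcr4-led cells it was 2.79 for *H2-Aa*, 3.27 for *H2-Ab1*, 6.08 for *H2-Eb1*, 2.2 for *Cd74* and 3.12 for the chains. In monocyte-like cells it was 6.55 for *H2-Eb1*, where the male-called BSA cells held 1 *H2-Eb1* UMI. In dendritic-like cells it was 0.42 for *H2-Aa*, 4.36 for *H2-Eb1* and 0.63 for the chains.

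Barcodes that failed the cell filter, which no comparison used, held class II chain UMIs: 361 in 534 barcodes of the FGF8 library, or 16.7 CPM, and 80 in 451 barcodes of the BSA library, or 5.99 CPM. None of these barcodes held more than 100 chain UMIs.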

How the results depend on the processing

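The chain log2 ratio in macrophage-like cells (-0.49 as reported) had a value below 0 under every alternative that was run. It was -0.42 with clusters from all 3000 features, -0.040 with cells called by C1q UMIs (-0.17 to 0.09, which includes 0), -0.55 without the highest doublet scores, -0.54 for females and -0.43 for males (called cells), -0.35 after thinning and -0.54 when centred. Without the dendritic-like sub-cluster it was -0.87, and without T or NK-like, Lars2-led and Bnc2-led cells -0.44 (both chosen after seeing the data). The number of members past 2-fold (0) became 1 with per-cell calling (*Ciita*), in male-called cells (*H2-Eb1*) and at 1.5-fold (*H2-Aa*), and 2 without dendritic-like cells (*H2-DMb1* and *Ciita*). The thinned share of cells (-3.76 points) was -9.17 in male-called cells, and its interval lay below 0 in 7 of 11 alternatives and included 0 in 4. The part of chain UMIs held by macrophage-like cells (-4.38 points, FGF8 minus BSA) was -1.97 with all features, 1.2 with per-cell calling, -2.51 without the highest doublet scores, -1.0 for females and -6.06 for males. The fibroblast-like chain ratio (0.54) was -0.25 with all features, 1.86 with per-cell calling, -0.71 for females and 1.30 for males, 1.04 with equal weight of cells, 1.04 after thinning, and 0.052 without the top cell of each library.

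At a sub-cluster resolution of 0.3 the Cxcr4-led ratio was -0.92, and at 0.1 the C1q-rich ratio was -0.22. Without the top cell of each library, chosen after seeing the data, the dendritic-like ratio (-0.10) was -0.024. Cxcr4-led and dendritic-like cells were not separate at 0.1. Of 80 member ratios in macrophage-like cells under alternatives 77 were lower than 0 and 3 higher: *H2-Ab1* with per-cell calling (0.22), and *H2-Eb1* (3.34) and *Ctss* (0.020) in male-called cells. The median of all genes shifted by 0.06 in macrophage-like and -0.07 in fibroblast-like cells. No paired analysis was possible because each condition is 1 library.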
